A study of Mus musculus with 4 samples.

Results

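The 10 genes described here handle fatty acids inside the cell: Cd36 takes them up, Fabp3, Fabp4 and Fabp5 bind them, Dgat1 and Dgat2 build them into triglyceride, Plin2 and Plin3 coat the lipid droplet, and Pnpla2 and Lipe break triglyceride down. They were taken by symbol from count tables of 23282 rows, where each of the 10 has 1 row. The tables come from primary acinar cells of the C57BL/6J mouse pancreas, kept in Waymouth's medium with serum, trypsin inhibitor and 25 ng/ml of human epidermal growth factor. Cells of one group carried an adenovirus for the estrogen-related receptor ERRγ (ERR gamma, gene Esrrg), an orphan nuclear receptor, and those of the other an adenovirus for green fluorescent protein (GFP). Both viruses were given at a multiplicity of infection of 100 for 36 h, so the controls are infected cells too. Each group has 2 transcript-end libraries, numbered 1 and 2. Whether the pair of libraries of a group stems from different mice or dishes is not in the labels, so a p-value weighs only the spread seen between them, which may be technical.

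Fatty acids move through the cytosol on small binding proteins of the FABP family, each a barrel that holds a fatty acid in its cavity. What is not burned is esterified to triglyceride, whose last step is catalysed by the acyltransferases DGAT1 and DGAT2, and is stored in droplets under a coat of perilipins. Lipases release it again: PNPLA2 (adipose triglyceride lipase) makes the first cut and LIPE (hormone-sensitive lipase) acts mainly on the diglyceride that results. In the exocrine pancreas droplets are scarce in healthy acinar cells, and fat is known to build up after injury.

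With ERRγ, Fabp4 rose 7.19-fold, Dgat2 2.15-fold and Fabp5 2.15-fold, while Plin2, the coat protein of droplets in most cells other than adipocytes, fell by 0.58 on the log2 scale. These are the 3 higher and the 1 lower among the 9 genes that passed the filter on low counts (edgeR's quasi-likelihood test, Benjamini-Hochberg adjusted p under 0.05 over all 13070 rows tested). Over all rows tested 5.06% were called higher and 1.78% lower. These shares give no test of an excess among the 9 genes. The genes were chosen with earlier results of these data known. Fabp4 also passed the filter only through its ERRγ libraries, where it is high. DESeq2 and limma-voom each also called 3 of the 9 genes higher and 1 lower, where DESeq2 called 6.22% and 2.67% of all rows and limma-voom 4.82% and 1.84%. Fabp3, Pnpla2 and Dgat1 were higher in both ERRγ libraries than in both GFP libraries but did not pass, and Plin3 and Lipe overlapped between the groups. Cd36 was too low to test. In bulk samples, fewer cells of a type and less RNA per cell cannot be told apart.

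**Figure D1:**
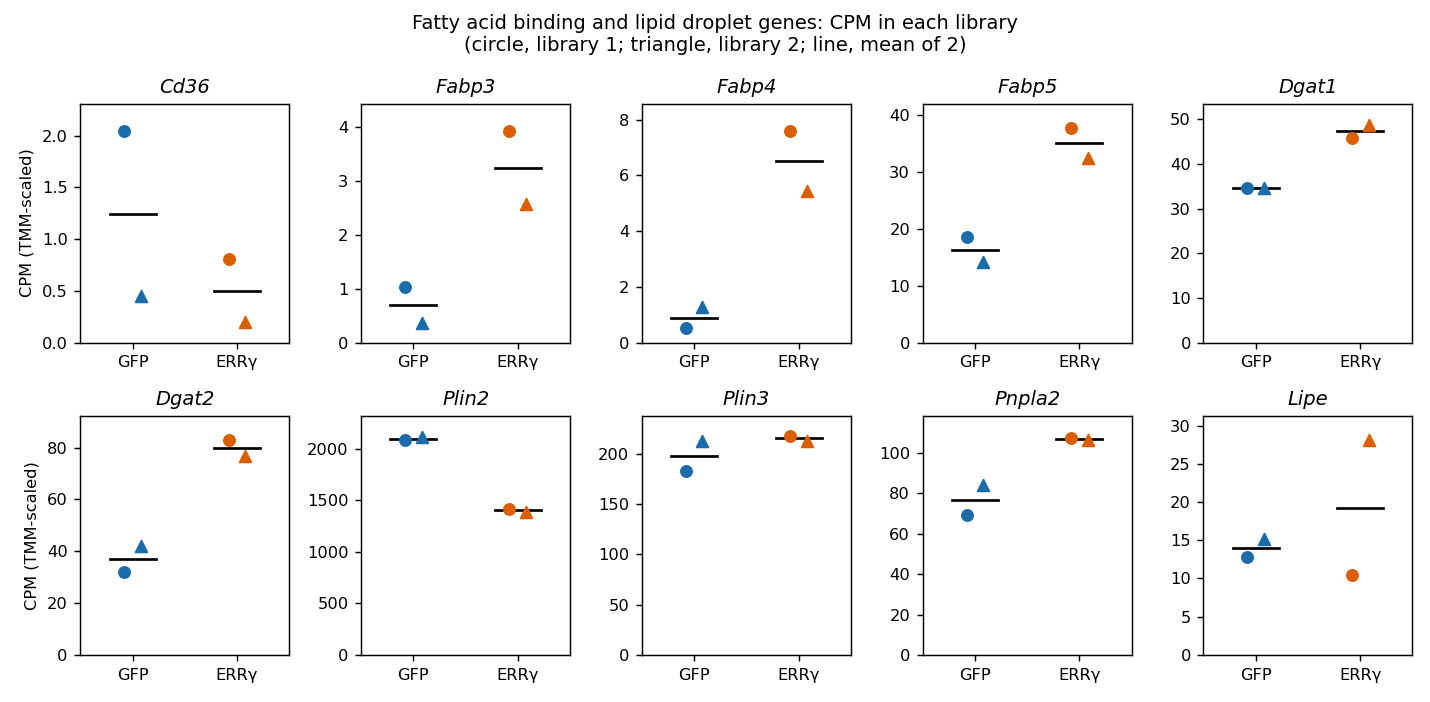
CPM (counts on a common library size after TMM, linear axes from 0) of the 10 genes in each library, with GFP in blue and ERRγ in orange; the circle is library 1, the triangle library 2 and the line their mean. Fabp4, Fabp5 and Dgat2 stand higher in both ERRγ libraries, Plin2 stands lower in both, and the ERRγ libraries are far apart for Lipe.

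The libraries held 10.11 to 11.01 M counts, and 3 counts in a library correspond to 0.268 to 0.307 CPM, the unit used below for counts put on a common library size with TMM factors. The labels speak of no molecular identifiers, so counting intervals cover counting error only. Esrrg, the gene carried by the virus, was counted 1453 times in ERRγ library 1, 12994 times in ERRγ library 2 and 86 and 107 times in the GFP libraries. It was higher where the labels say so (log2 fold change 6.26, adjusted p = 0.0109, or 0.0623 with limma-voom), although the ERRγ libraries differ widely; without GFP library 1 or GFP library 2 the adjusted p was 0.168 or 0.127. Reads of the virus's gene and of the cell's own Esrrg cannot be told apart in these counts. The cells are labelled acinar, but the acinar factor gene Ptf1a had no count in any library. The 12 acinar markers together stood at 50.6 to 107 CPM, against 4790 to 6300 CPM for 8 ductal markers. Of these markers Prss2 (log2 fold change 2.78, adjusted p = 0.00905) and Cftr (1.25, adjusted p = 0.0444) rose and Krt7 fell (-0.65, adjusted p = 0.0285), and the part of cell makeup in the results below was not tested.

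The 3 binding proteins are close relatives. Fabp5 (chromosome 3, 10012548 to 10016607, plus strand, GRCm38) and Fabp4 (chromosome 3, 10204088 to 10208576, minus strand) lie in one gene cluster together with Fabp9 and Fabp12, and Fabp3 lies on chromosome 4 (130308595 to 130315463, plus strand). Each has 4 exons, and the coding sequences of Fabp4 and Fabp3 share 63.6% of aligned bases, those of Fabp4 and Fabp5 60.6%, and those of Fabp3 and Fabp5 55.6%. Exon 2, coding throughout and 173 bases long in each gene, is shown to let the family likeness be seen; capitals mark the 83 bases that are the same in all 3 genes. It spans chr4:130312291-130312463 (plus strand) in Fabp3, chr3:10205950-10206122 (minus strand) in Fabp4 and chr3:10014971-10015143 (plus strand) in Fabp5, per GENCODE M21 on GRCm38, and is written 5′ to 3′ on the coding strand.
Fabp3 exon 2: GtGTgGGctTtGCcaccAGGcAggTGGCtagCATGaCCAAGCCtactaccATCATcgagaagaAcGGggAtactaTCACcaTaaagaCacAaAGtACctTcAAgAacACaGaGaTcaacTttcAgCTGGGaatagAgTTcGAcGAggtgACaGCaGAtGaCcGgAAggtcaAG
Fabp4 exon 2: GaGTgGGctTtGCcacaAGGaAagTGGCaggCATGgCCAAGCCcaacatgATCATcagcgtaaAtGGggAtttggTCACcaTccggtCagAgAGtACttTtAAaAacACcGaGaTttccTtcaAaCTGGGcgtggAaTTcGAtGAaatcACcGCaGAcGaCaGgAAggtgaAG
Fabp5 exon 2: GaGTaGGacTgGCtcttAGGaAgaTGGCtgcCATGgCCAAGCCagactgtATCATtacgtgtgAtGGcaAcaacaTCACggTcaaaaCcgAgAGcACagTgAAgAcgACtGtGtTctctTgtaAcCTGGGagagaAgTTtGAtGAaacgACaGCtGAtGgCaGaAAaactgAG
These libraries read the end of the transcript, and of the 451 stretches of 50 bases in its last 500 bases, Fabp4 and Fabp5 share 0 letter for letter with a transcript of another gene.

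Fabp4, the binding protein of adipocytes and macrophages, had 85 and 55 counts in ERRγ libraries 1 and 2 and 5 and 14 counts in GFP libraries 1 and 2. In CPM these are 7.58 and 5.43 with ERRγ against 0.512 and 1.26 with GFP, or 6.51 ± 1.52 against 0.884 ± 0.527 (SD, n = 2). Both ERRγ libraries lay well above both GFP libraries, and the exact 95% counting intervals did not touch (41.4 counts at the lowest with ERRγ, 23.5 at the highest with GFP). The log2 fold change was 2.84 (SE 0.54, 95% interval 1.59 to 4.10, adjusted p = 0.0214). Its size hangs on the few GFP counts: it was 2.36 without GFP library 1 (adjusted p = 0.193) and 3.64 without GFP library 2 (adjusted p = 0.0833), and neither of these passed. Fabp4, like Fabp3, passed the filter on low counts only through its ERRγ libraries.

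Fabp5, the epidermal member, which many epithelia and tumours also make, was counted 423 and 328 times in ERRγ libraries 1 and 2 and 181 and 158 times in GFP libraries 1 and 2. This is 35.1 ± 3.77 CPM against 16.4 ± 3.07 CPM (SD, n = 2). The groups stood clear of each other, and the spread inside each was small beside the gap. The log2 fold change was 1.10 (SE 0.20, 95% interval 0.64 to 1.57, adjusted p = 0.0183), and 1.30 without GFP library 1 (adjusted p = 0.101) or 0.92 without GFP library 2 (adjusted p = 0.155).

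Fabp3, the binding protein of heart and oxidative muscle, reached 44 and 26 counts under ERRγ but 10 and 4 under GFP. The groups did not overlap, but the counts are few and the call was not made (log2 fold change 2.24, SE 0.66, 95% interval 0.71 to 3.77, adjusted p = 0.0890). It was made with no filter on low counts (2.23, adjusted p = 0.0155), where 7.11% of all rows were called higher, beside 5.06%. The log2 fold change of Fabp3 was 1.90 without ERRγ library 1 and 2.51 without ERRγ library 2. The value is uncertain for a second reason. The end of Fabp3 overlaps Zcchc17 on the opposite strand, 35.0% of the stretches in its last 500 bases also occur in Zcchc17 or the pseudogene Fabp3-ps1, and the use of strand in counting is not given in the sources used here. Zcchc17 itself had 348 and 292 counts under ERRγ and 453 and 360 under GFP. The part of reads from Zcchc17 or Fabp3-ps1 in the Fabp3 values was not tested. Fabp9 and Fabp12, which lie in the cluster with Fabp4 and Fabp5, were silent or nearly so: Fabp9 had 0 counts in every library and Fabp12 had 4 counts in GFP library 2 alone.

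Cd36 (chromosome 5, 17781690 to 17888801, minus strand), a scavenger receptor that takes up long-chain fatty acids in muscle, fat and macrophages, was close to the floor. ERRγ libraries 1 and 2 held 9 and 2 counts of it, GFP libraries 1 and 2 held 20 and 5. The groups overlapped, and library 1 was the higher in both. With no filter its log2 fold change was -1.27 (SE 1.02, adjusted p = 0.550), so a difference was not detectable at this depth.

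Of the enzymes that close the triglyceride molecule, Dgat2 (chromosome 7, 99153658 to 99182719, minus strand) had the smallest p of all 9 genes tested. DGAT2 is the acyltransferase found at droplets and at the endoplasmic reticulum, and it is unrelated in sequence to DGAT1. The counts of Dgat2 were 928 and 777 under ERRγ but 311 and 470 under GFP, or 79.8 ± 4.27 CPM against 37.0 ± 7.33 CPM (SD, n = 2). Both ERRγ libraries were well above the higher GFP library (log2 fold change 1.11, SE 0.17, 95% interval 0.71 to 1.50, adjusted p = 0.00979). Dgat2 passed without GFP library 2 (log2 fold change 1.32), the one of the 4 called genes to do so, but not without GFP library 1 (0.91, adjusted p = 0.129).

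Dgat1 (chromosome 15, 76502015 to 76511953, minus strand), the acyltransferase of the endoplasmic reticulum, was counted 514 and 494 times under ERRγ and 339 and 385 times under GFP. In CPM the libraries of a group were nearly equal, at 45.9 and 48.8 against 34.7 and 34.6. The groups were apart, but by less than for Dgat2, and the call was not made (log2 fold change 0.45, SE 0.14, 95% interval 0.13 to 0.77, adjusted p = 0.0997). The log2 fold change of Dgat1 was 0.50 without ERRγ library 1 and 0.40 without ERRγ library 2. The count of Dgat2 was 1.81 and 1.57 times that of Dgat1 within ERRγ libraries 1 and 2, and 0.917 and 1.22 times within GFP libraries 1 and 2. This ratio does not depend on library scaling, and it was higher in both ERRγ libraries. The difference between the enzymes was not tested. The 3 genes whose profile over the 4 libraries was most like that of Dgat2 were Tmem14a, Lysmd1 and Tprn, with a root mean square distance of 0.028, 0.051 and 0.054 in centred log2 CPM among 8734 genes of at least 10 CPM.

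Plin2 (chromosome 4, 86648386 to 86670060, minus strand) encodes the droplet coat protein that is stable only on lipid and is a common marker of droplet load. Its counts were 15821 and 14072 under ERRγ, 20318 and 23482 under GFP, which is 0.151% and 0.132% of all counts against 0.201% and 0.213%. In CPM the libraries were 1411 and 1390 with ERRγ and 2079 and 2108 with GFP. Within a group they differed by 0.02 on the log2 scale, the least of the 10 genes when both groups are considered, and the gap between the groups was many times wider. The log2 fold change was -0.58 (SE 0.14, 95% interval -0.90 to -0.26, adjusted p = 0.0458). The call is at the edge of the threshold: the adjusted p was 0.0513 with RLE factors, and 0.313 and 0.290 without GFP library 1 or GFP library 2. The fold itself barely moved, from -0.59 to -0.55 over all 12 alternatives.

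Plin3 (chromosome 17, 56277476 to 56292873, minus strand), a coat protein that moves from the cytosol onto nascent droplets, was counted 2448 and 2158 times under ERRγ and 1788 and 2378 times under GFP. Its CPM of 218 and 213 with ERRγ and 183 and 213 with GFP overlapped (log2 fold change 0.12, SE 0.14, 95% interval -0.20 to 0.44, adjusted p = 0.652). A rise larger than 0.44 or a fall larger than 0.20 lies outside that interval. Inside each library, the Plin2 count was 6.46 and 6.52 times the Plin3 count with ERRγ and 11.4 and 9.87 times with GFP. The ratio of Plin2 to Plin3 was therefore lower in both ERRγ libraries, a difference that was not tested.

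Pnpla2 (chromosome 7, 141455198 to 141460743, plus strand), the lipase of the first step, gave 1207 and 1078 counts under ERRγ, 679 and 937 under GFP. Its CPM was 108 and 107 with ERRγ and 69.5 and 84.1 with GFP, so the groups were apart. It did not pass (log2 fold change 0.48, SE 0.15, 95% interval 0.14 to 0.81, adjusted p = 0.0950), but did with no filter (adjusted p = 0.0409). With no filter 7.11% of all rows were called higher, beside 5.06% in the main fit. The log2 fold change of Pnpla2 was 0.47 without ERRγ library 1 and 0.48 without ERRγ library 2. Set against the droplet coat gene, the Pnpla2 count was 0.0763 and 0.0766 of the Plin2 count with ERRγ and 0.0334 and 0.0399 with GFP. The groups did not overlap in this ratio, which was not tested.

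Lipe (chromosome 7, 25379527 to 25398710, minus strand) was the member on which the ERRγ libraries disagreed. Its counts were 117 in ERRγ library 1 and 284 in ERRγ library 2, with 125 and 169 in the GFP libraries. ERRγ library 1 was the lowest of the 4 in CPM and ERRγ library 2 the highest, at 10.4 and 28.1 CPM against 12.8 and 15.2 CPM with GFP. The log2 fold change of 0.46 (SE 0.41, adjusted p = 0.563) was 1.00 without ERRγ library 1 and -0.42 without ERRγ library 2, so its direction rests on 1 library.

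**Figure D2:**
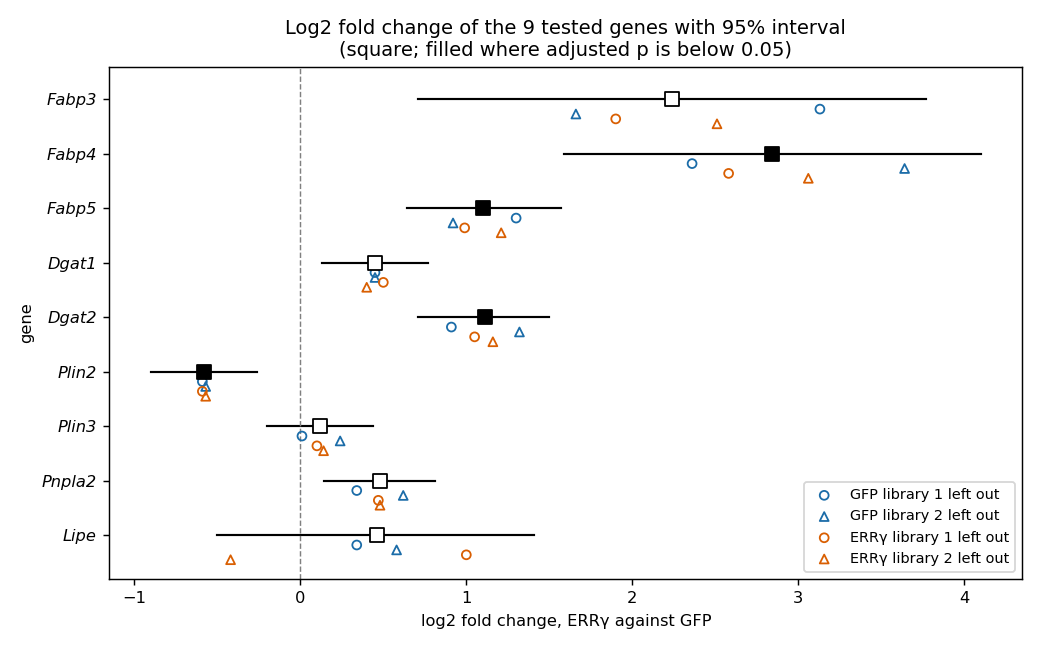
Log2 fold change of ERRγ against GFP for the 9 genes tested (square, filled where the adjusted p is below 0.05; line, 95% interval of the fit) and the same value with 1 library left out (open symbols under each line). Intervals are not adjusted for the number of genes, so those of Fabp3, Dgat1 and Pnpla2 exclude 0 although these genes did not pass; the value for Lipe changes sign.

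Library 2 of the ERRγ pair, with the higher Esrrg count, also carried more transcript of genes known to respond to hypoxia. Each of the 16 such genes tested stood higher in that library than in its partner, as 6452 of all 13070 rows tested did. Their median log2 difference was 1.78, against 0.14 between the GFP libraries. Their summed level was 2700 and 8050 CPM in ERRγ libraries 1 and 2 and 2640 and 3060 CPM in the GFP libraries. Between the groups all 16 had a positive log2 fold change (median 1.29, against -0.01 over all rows), and 1 (Pgk1) passed the test. Some, such as Vegfa and Pdk1, were higher in both ERRγ libraries than in both GFP libraries, and others, such as Slc2a1 and Ndrg1, overlapped. Lipe moved from ERRγ library 1 to 2 in the same direction as these genes, by 1.43, and the part of hypoxia in its values was not tested. For the 4 called genes the log2 difference from ERRγ library 1 to 2 was -0.48 for Fabp4, -0.22 for Fabp5, -0.11 for Dgat2 and -0.02 for Plin2. The part of hypoxia in the values of these 4 genes was not tested either. Hilpda, a hypoxia-induced inhibitor of PNPLA2 that sits on droplets, was counted 8176 and 15497 times under ERRγ, 8844 and 14059 times under GFP, and did not differ between the groups beyond their spread (log2 fold change 0.06, SE 0.32, adjusted p = 0.938).

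**Figure D3:**
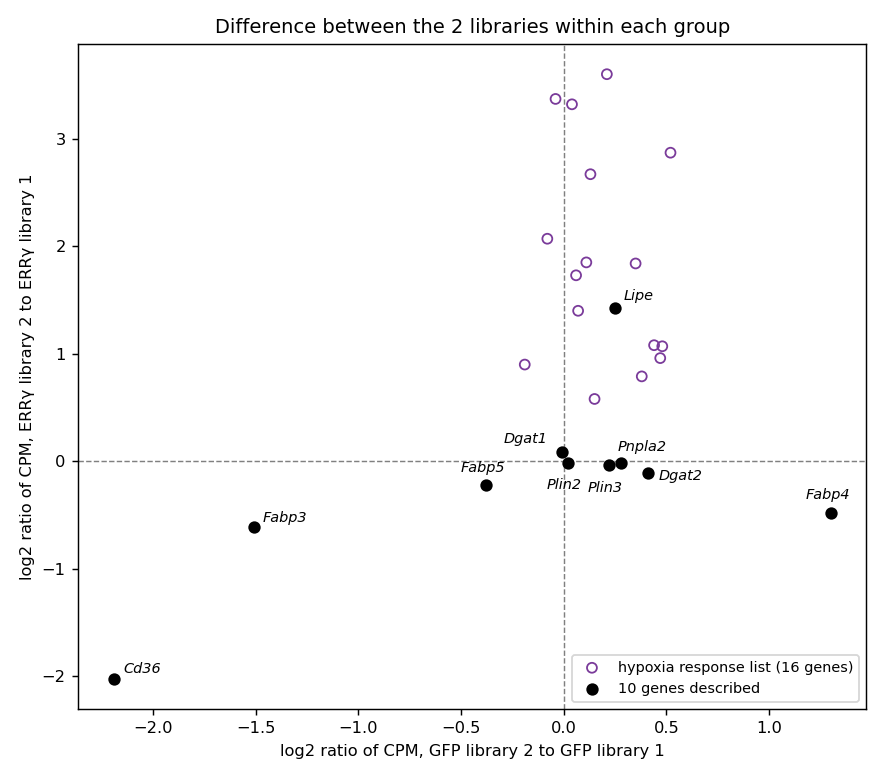
Log2 ratio of CPM of library 2 to library 1, within GFP on the x axis and within ERRγ on the y axis, for the 10 genes described (black) and 16 hypoxia response genes (open purple). The hypoxia genes all lie above 0 on the y axis, as Lipe does at 1.43, whereas Plin2, Plin3, Pnpla2 and Dgat1 lie within 0.1 of it.

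In the 7 lists of other lipid handling genes, 99 genes have a row and 77 were tested, of which 2 rose and 1 fell (2.60% and 1.30%, beside 5.06% and 1.78% of all rows), with a median log2 fold change of 0.10. These shares are near or below those over all rows and are no result about the lists. The median over all rows tested was -0.01 and that of the 9 tested genes described above 0.48. Groups stood apart with ERRγ higher for 26 of the 77 and with ERRγ lower for 15, where 27.4% and 26.6% of all rows did so. Among the 9, ERRγ was higher with no overlap for 6 and lower for 1, but Fabp3 and Fabp4 entered the test through the group where they are high, so these counts support nothing about the 9.

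Agpat2, which makes phosphatidic acid upstream of the DGAT step, was the 1 of 14 tested genes of triglyceride and sterol ester synthesis past the threshold. Its counts were 1576 and 1324 under ERRγ but 646 and 838 under GFP (log2 fold change 0.94, SE 0.14, adjusted p = 0.00865). Its end overlaps Egfl7 on the opposite strand, which held 92, 68, 81 and 78 counts in ERRγ libraries 1 and 2 and GFP libraries 1 and 2. Scp2, a peroxisomal thiolase and lipid transfer protein that binds acyl-CoA, was the 1 of 7 other binding proteins past the threshold, at 747 and 784 counts under ERRγ but 448 and 441 under GFP (log2 fold change 0.75, SE 0.15, adjusted p = 0.0273). Ppard, a nuclear receptor activated by fatty acids, was the 1 of 9 genes of that receptor list past the threshold and fell, from 585 and 638 counts under GFP to 375 and 312 under ERRγ (log2 fold change -0.86, SE 0.14, adjusted p = 0.0115). The calls for Agpat2 (adjusted p = 0.148 and 0.0808), Scp2 (0.165 and 0.233) and Ppard (0.151 and 0.108) ended without GFP library 1 and without GFP library 2.

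In the remaining 4 lists, for uptake and lipoprotein lipolysis, acyl-CoA synthetases, other droplet coat and formation proteins, and other lipolysis enzymes, 0 of 47 tested genes passed with edgeR. Of these 47, 10 had an unadjusted p under 0.05. The share of all rows under that p is not given here, so this count is no result about the lists. DESeq2 called Lpl higher and Ptrf lower, where it called 6.22% of all rows higher and 2.67% lower. With limma-voom 0 of the 47 were called, where 4.82% of all rows were called higher and 1.84% lower. Among the 47, the 6 acyl-CoA synthetases tested had log2 fold changes from 0.09 to 1.00, the last for Acsl6, whose groups overlapped. Some genes that missed the threshold are given here because of their values, seen beforehand. Cidea, a droplet fusion protein of brown fat, reached 34 and 38 counts under ERRγ but 9 and 4 under GFP (log2 fold change 2.41, SE 0.63, adjusted p = 0.0631). Cidea passed the filter on low counts only through its ERRγ libraries. Lpl, the lipase that frees fatty acids from lipoproteins, reached 246 and 142 counts as opposed to 89 and 44 (1.47, SE 0.41, adjusted p = 0.0772). Pparg, the receptor that drives Fabp4 in fat cells, reached 165 and 79 counts as opposed to 20 and 70, with groups apart but libraries of each group unlike (1.42, SE 0.53, adjusted p = 0.160). Hsd17b11, of the droplet list, went the other way, with 384 and 305 counts under ERRγ but 516 and 509 under GFP (-0.61, SE 0.16, adjusted p = 0.0576). Srebf2, of the receptor list, did so too, with 594 and 622 counts as opposed to 769 and 966 (-0.53, SE 0.15, adjusted p = 0.0714). Of the other perilipins, Plin1, the coat protein of adipocytes, had 0 counts in every library, and Plin4 and Plin5 did not pass (log2 fold changes -0.36 and -0.48).

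**Figure D4:**
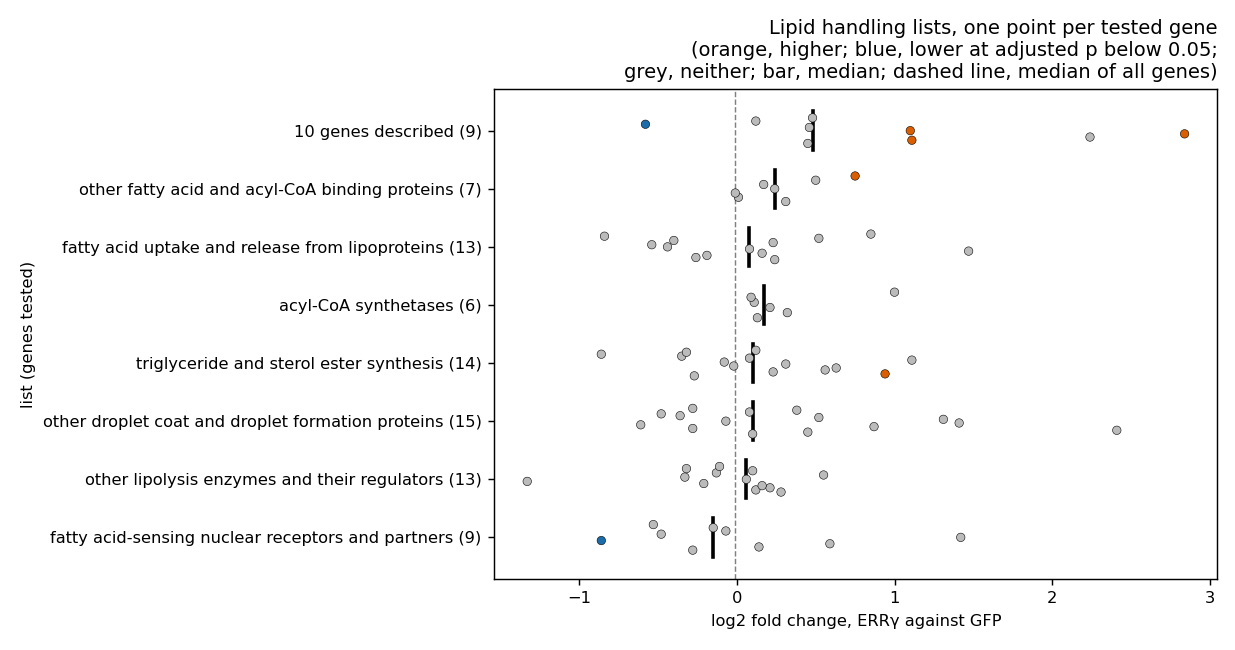
Log2 fold change of ERRγ against GFP for each tested gene of the 10 described and of 7 surrounding lists, with the number tested in brackets, the median as a bar and the median of all rows as a dashed line. Called genes are orange (higher) or blue (lower); besides the 4 genes described above these are Scp2, Agpat2 and Ppard.

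Fabp4 and Lipe are also markers of other cells. Of 10 adipocyte markers, 2 (Plin1 and Lep) were at 0 in every library, and Adipoq was counted 0 and 4 times under ERRγ, 3 and 0 times under GFP. Cidec (6 and 2 counts), Cfd (1 and 2) and Retn (0 and 3) were counted under ERRγ alone, too low to test. The list summed to 19.6 and 36.0 CPM with ERRγ and 13.6 and 16.5 CPM with GFP, most of it from Lipe and Fabp4 themselves. The one other adipocyte marker past the threshold, the adrenergic receptor gene Adrb3, reached 11 and 13 counts under ERRγ and 0 in both GFP libraries (adjusted p = 0.0489), and it too entered the test only through the group where it is high. The 12 endothelial markers summed to 32.5 and 28.4 CPM with ERRγ and 28.0 and 16.0 CPM with GFP. Of the 7 tested, Fabp4 alone was called higher. Esam (97 and 92 counts under ERRγ, 44 and 38 under GFP) and Kdr (21 and 20, against 11 and 4) were higher in both ERRγ libraries without passing. Pecam1 was lower in both by CPM, and 4 of the 7 had a negative log2 fold change. The 12 macrophage markers summed to 11.9 and 16.9 CPM against 14.9 and 17.9 CPM, and Ptprc, the common leukocyte antigen, had 1 count in GFP library 1 alone. Of the 4 macrophage markers tested, 0 passed, 1 had a positive log2 fold change and 3 a negative one. Csf1r (42 and 72 counts under ERRγ, 24 and 37 under GFP) was higher in both ERRγ libraries. Mrc1 (37 and 17, against 38 and 65) was lower in both by CPM, and Cd68 (27 and 67, against 51 and 47) overlapped. Adgre1 (0 and 0, against 8 and 20) was too low to test. The part of adipocytes, endothelial cells and macrophages in the Fabp4 values was not tested beyond these levels. Of 12 muscle markers, 5 were at 0 in every library, and the list summed to 95.6 and 80.6 CPM with ERRγ and 177 and 134 CPM with GFP. Most of that sum was Acta1, at 63.0 and 46.6 CPM against 156 and 109 CPM, which fell (adjusted p = 0.0137), whereas Tnnt2 (29.2 and 31.1 CPM against 19.9 and 24.6 CPM), Tnni3, Tnnt3 and Actc1 were higher in both ERRγ libraries, as Fabp3 was, and did not pass or were too low to test. The part of muscle cells in the Fabp3 values was not tested. Islet transcripts differed between libraries, at 45.1 and 13.1 CPM with ERRγ and 184 and 26.4 CPM with GFP for 7 markers, higher in library 1 of each group, as Cd36, Fabp3 and Fabp5 were; the part of islet cells in those values was not tested.

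RefSeq promoter windows on GRCm38.p6 (250 bases before to 50 after a start) were at hand for Fabp3, Cd36, Plin2, Plin3, Pnpla2 and Lipe. No window was at hand for Fabp4, Fabp5, Dgat1 or Dgat2, so Plin2 was the only called gene covered. The 6 genes with a window have 7 in all. The letters TNAAGGTCA, the response element of ERR receptors, searched on both strands, were in 0 of these 7 windows, against 1.28% of 32851 windows of all genes. The direct repeat DR1 bound by PPAR receptors, AGGTCA written again after a gap of 1 base, was in 0 of the 7 and in 0.0396% of all; a match to one motif can overlap a match to the other. No match says only that these letters are not in these windows.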

How the data were processed

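The authors deposited raw counts, whole numbers by gene symbol, in 1 file per library (4 in all). Per the labels' protocols, each library took 500 ng of RNA through Lexogen's QuantSeq kit, which reads transcript ends. The submitters' processing notes name Bowtie2, edgeR and the build mm10. Versions, the counter, the annotation, strand use and filters are not stated in the labels. Counts totalled 10480878 and 10645277 (ERRγ libraries 1 and 2) and 10105604 and 11012351 (GFP). Repeated symbols (35 on 79 rows) were kept apart.

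The fit used edgeR 4.0.16 in R 4.3.3: filterByExpr with a minimum count of 10 (13070 of 17888 rows with a count), TMM, group alone, glmQLFit and glmQLFTest, 2 residual degrees of freedom, two-sided, Benjamini-Hochberg over all rows tested, threshold 0.05. SE is the log2 fold change over the square root of F. CPM are on TMM library sizes. Libraries of a group differed beyond sampling noise (chi-square per degree of freedom 22.6 for ERRγ and 14.3 for GFP), so each counted as 1 sample. The test was checked on simulated counts.

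The 10 genes and the lists were chosen with earlier results of these data known. The rule for names took the 10 genes and Esrrg whatever they showed, up to 4 genes past the threshold per list, and the 3 genes most like the one with the smallest p. Cavin1, Gpat3 and Gpat4 stand in the files under older names (Ptrf, Agpat9 and Agpat6). Positions follow GENCODE M21 (GRCm38, the assembly that mm10 is). Coding sequences were aligned with mafft 7.526. Alternatives were library totals, RLE factors, DESeq2 1.42.0, limma-voom (limma 3.58.1), no filter, at least 5 CPM in 2 libraries, totals without the pre-ribosomal RNA Rn45s, the replicate block and each library left out.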

Additional observations from a re-analysis of the deposited data

How the results depend on the processing

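A fit with 1 library left out takes its spread from the pair of the other group alone. The calls of such a fit are therefore not comparable with those of the main fit. The share of all rows called, higher or lower, fell without either GFP library and rose without either ERRγ library. Counts of called genes from these fits are thus no result about the genes described here. Of the 9 tested genes, each kept its direction under the 12 alternatives except Lipe (-0.42 without ERRγ library 2). The count of these genes called higher, 3, was 5 with no filter and 0 to 6 when a library was left out; it was 0 without GFP library 1 (4 at an unadjusted p under 0.05) and 1 without GFP library 2, when the spread comes from the ERRγ pair alone and the lone GFP library is assumed to vary like that pair. The count called lower, 1, was 0 with RLE factors and 0 with the replicate block (Plin2 at an adjusted p of 0.0513 and 0.0542, unadjusted 0.00357 and 0.00474), and 0 to 1 when a library was left out; with DESeq2 and limma-voom it was 1, and 3 genes were called higher by each. Over all genes the 661 higher and 233 lower became 1271 and 738 with no filter, and 92 to 1597 and 7 to 1098 when a library was left out.

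The replicate numbers are shared by the groups in the labels. Across all 13070 genes the differences between libraries 1 and 2 were not correlated between the groups (r = 0.013), and the main fit did not take them as pairs. Some lists did shift alike from library 1 to 2 in ERRγ and GFP: the median log2 difference was -1.99 and -2.69 for islet markers and -0.98 and -0.90 for acinar markers. The hypoxia list did not (1.78 and 0.14). Whether libraries of the same number share an origin was not tested. With the replicate block 776 genes were higher and 315 lower. Over the 12 alternatives the median over all genes lay between -0.021 and 0.023 (log2). Fabp3, Fabp4 and Cd36, with fewer than 100 counts in each library, are the values that depth limits most. Fabp3 was not tested at 5 CPM.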
